A study of Homo sapiens with 6 samples.

Results

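The genes described here are 10 members of the S100 family of calcium-binding proteins, S100A2, S100A3, S100A4, S100A6, S100A10, S100A11, S100A13, S100A14, S100A16 and S100P, taken by symbol from a table of 62700 genes. RNA sequencing compared PC3 cells, a widely used line from human prostate cancer, carrying a short hairpin RNA (shRNA) against TTC3 with PC3 cells carrying a control shRNA. There were 3 libraries of TTC3 shRNA cells (genotype given as TTC3 knockdown) and 3 libraries of control shRNA cells (genotype given as WT). All cells were grown in the same serum-containing medium, and total RNA was depleted of ribosomal RNA. The labels give neither the hairpin sequences, the number of hairpins, the time after delivery nor whether the cells were clonal. Whether the 3 libraries of a group stem from independent cultures is likewise unstated, and the p-values below reflect library-to-library spread that may be technical.

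S100 proteins are small proteins built around a pair of EF-hands, helix-loop-helix units whose loop holds a calcium ion. Most form dimers, and calcium binding opens a face of the dimer that docks onto target proteins such as annexins, cytoskeletal proteins and ezrin. Some are also released from cells and bind surface receptors, of which RAGE (encoded by AGER) is the best known. S100A2 is known as a basal cell protein of the prostate epithelium, S100A4 is linked to motility and metastasis, and S100P is known from several carcinomas, including prostate.

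The calcium-binding loop nearer the carboxyl end is shown for every member, because S100A10, one of the members whose loop departs from the usual pattern, is among those that changed below. It is the canonical EF-hand loop, of the type also found in calmodulin, while the longer loop nearer the amino end is the one known as the S100-type loop. Each line is the 36 coding bases of the 12-residue loop, read from the GENCODE 29 transcript (GRCh38) with the highest protein-coding count of that gene, and the capitals mark the first and last codons, which in a calcium-binding loop encode aspartate and glutamate.

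S100A2: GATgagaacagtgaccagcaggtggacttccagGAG
S100A3: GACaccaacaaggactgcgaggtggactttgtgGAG
S100A4: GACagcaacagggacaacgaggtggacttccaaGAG
S100A6: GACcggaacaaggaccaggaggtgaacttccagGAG
S100A10: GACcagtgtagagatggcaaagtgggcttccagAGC
S100A11: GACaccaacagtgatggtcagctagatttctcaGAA
S100A13: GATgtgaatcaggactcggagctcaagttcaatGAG
S100A14: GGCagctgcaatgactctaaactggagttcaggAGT
S100A16: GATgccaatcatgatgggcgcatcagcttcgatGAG
S100P: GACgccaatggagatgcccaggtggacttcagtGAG

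The loop kept both the aspartate and the glutamate codon in 8 of the 10 members. S100A10, which is known not to need calcium for binding its partner annexin A2, ended in a serine codon, and S100A14 had neither end codon. The encoded proteins had 90 to 105 residues. Aligned coding sequences of the 45 pairs of members were 42.1% to 70.8% identical (median 49.1%), with S100A2 and S100A4 the closest pair.

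On hg38, 9 of the 10 members lay on chromosome 1, from S100A10 (151982915 to 151994390) to S100A13 (153618787 to 153631360), and all 9 were on the minus strand. S100P lay on chromosome 4 (6693069 to 6697170). Some members overlapped other annotated genes. S100A3 lay within the annotated span of S100A4 on the same strand (2044 bases), S100A13 overlapped S100A1 on the opposite strand (3435 bases) and the noncoding ENSG00000271853 on its own strand (5029 bases), and S100A6 and S100A11 each overlapped an antisense gene. How reads in such stretches were divided is not given in the sources used here, so S100A3, S100A4 and S100A13 in particular are uncertain. Of 10 S100 pseudogenes in the table, 1 had any count, and that was 1 count over the 6 libraries.

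Promoter sequence from RefSeq (GRCh38.p14) was found for all 10 members, in 14 start-site windows. A TATAA string on the gene's strand within the last 45 bases before the start was present in 5 of the 14 member windows (at S100A4, S100A6, S100A13, S100A14 and S100P), against 4.5% of 35116 windows of all genes. The string TGANTCA, which reads the same on both strands, was present within the 250 upstream bases of 2 of the 14 member windows (at S100A2 and S100A3), against 6.6% of all windows. The windows of the member that fell most (S100P), of S100A6 and of the member that rose (S100A16, its upstream start site) are printed to show this difference in the core promoter, with TATAA in capitals. S100P is on the plus strand at chr4:6693833-6693877, S100A6 on the minus strand at chr1:153535992-153536036 and S100A16 on the minus strand at chr1:153613138-153613182.

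S100P: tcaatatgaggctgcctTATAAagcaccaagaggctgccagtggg
S100A6: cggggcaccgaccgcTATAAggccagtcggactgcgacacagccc
S100A16: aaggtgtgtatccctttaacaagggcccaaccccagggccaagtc

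A match to these letters is a description of the sequence, and members with TATAA included both S100P, which fell, and S100A6, S100A13 and S100A4, which did not pass the test. The window of S100A10, which also passed as lower, had no TATAA.

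Gene counts totalled 144655100 to 155526861 per TTC3 shRNA library and 143246356 to 154832203 per control shRNA library. TTC3, the targeted E3 ubiquitin ligase gene, was at 196 ± 27.5 CPM (counts scaled to a library total of 1000000) in TTC3 shRNA cells and 687 ± 7.86 CPM in control shRNA cells (SD, n = 3 each), a log2 fold change of -1.81 ± 0.10 (SE, adjusted p = 5.65e-05, edgeR quasi-likelihood test). The test was passed (adjusted p under 0.05) by 8165 of 24325 tested genes (33.6%), 15.7% of the tested genes being higher and 17.8% lower in cells with the TTC3 shRNA. Of the library pairs within a group, those with TTC3 shRNA replicate 1 differed by 42.1 and 54.1 times the sampling noise (median chi-square per gene), TTC3 shRNA replicates 2 and 3 by 8.55 times, and control shRNA pairs by 4.12 to 5.54 times. Leaving out TTC3 shRNA replicate 1 gave 13739 such genes and leaving out replicate 2 gave 5372, and 4546, 4632 and 4633 when control shRNA replicate 1, 2 or 3 was left out. The epithelial keratin genes and EPCAM summed to 321 to 470.0 CPM in TTC3 shRNA libraries and 322 to 339 CPM in control shRNA libraries. KLK3 and KLK2, defining genes of luminal prostate cells, had 0 counts in all 6 libraries. Fibroblast markers summed to 43.9 to 102 CPM in TTC3 shRNA libraries and 19.0 to 20.1 CPM in control shRNA libraries, nearly all COL1A1. LUM went the other way, at 0.153 to 0.244 CPM in TTC3 shRNA libraries and 0.393 to 0.442 CPM in control shRNA libraries. DCN and PDGFRB overlapped between the groups. Endothelial markers summed to 2.63 to 3.52 CPM in TTC3 shRNA libraries and 4.69 to 5.64 CPM in control shRNA libraries, with CDH5 at 0 in all 6. The part of these markers in the S100 values was not tested.

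All 10 S100 members passed the filter on low counts, and 3 of them passed the test, S100A16 higher and S100A10 and S100P lower in TTC3 shRNA cells. That share, 30%, is near the 33.6% of all tested genes. Of the 7 members with a mean of at least 5 CPM, 2 passed, against 43.4% of all tested genes at that level. The groups did not overlap for 5 members (S100A2, S100A10, S100A11, S100A16 and S100P), against 50.3% of all tested genes. The median log2 fold change was -0.15 over the members and -0.02 over all tested genes. When TTC3 shRNA replicate 1 was left out, 3 members passed as higher (S100A3, S100A13 and S100A16), and the 2 lower ones were still S100A10 and S100P. In bulk RNA, fewer cells of a type and less RNA per cell cannot be told apart.

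**Figure D1:**
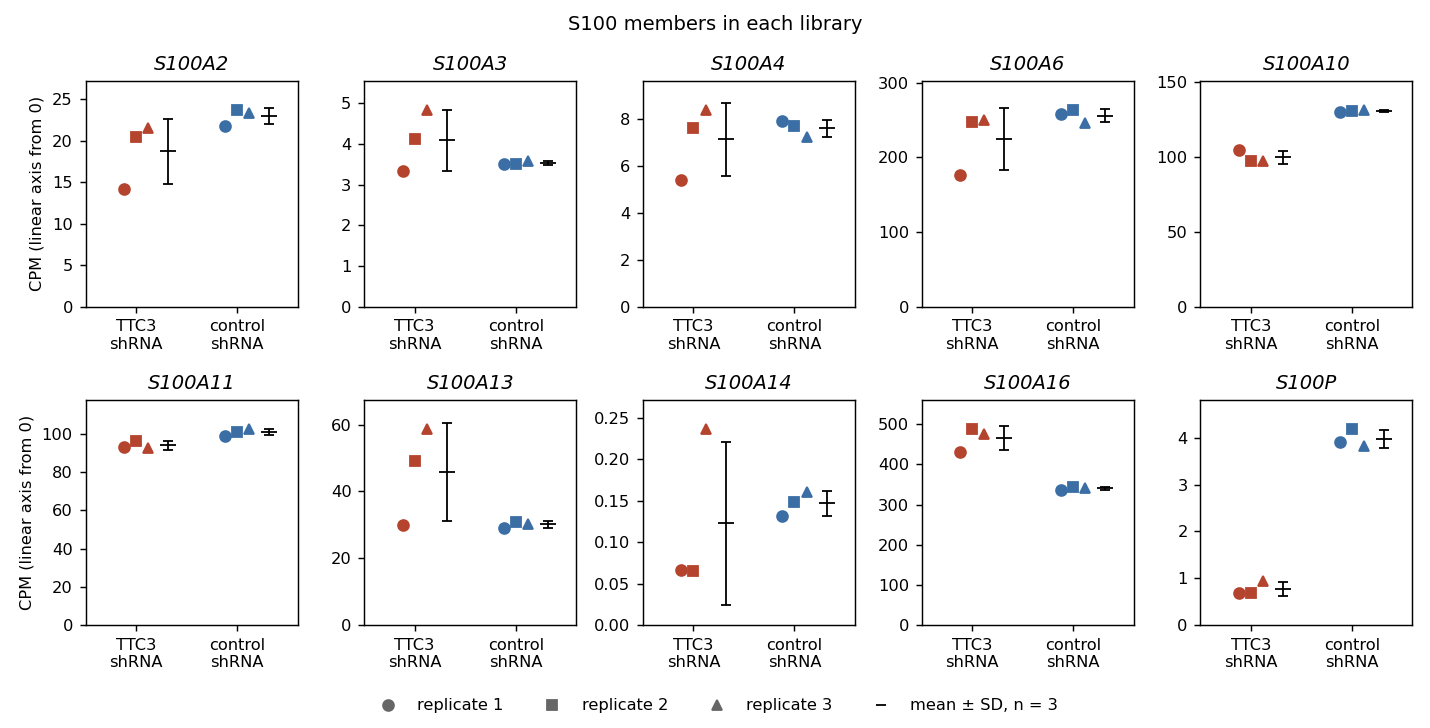
CPM (linear axes from 0) of the 10 S100 members in each library, TTC3 shRNA libraries in red and control shRNA libraries in blue, with symbols for replicates and the mean ± SD (n = 3) beside each group. S100P and S100A10 lay below and S100A16 above all control shRNA libraries. Among the TTC3 shRNA libraries, replicate 1 was lowest for S100A2, S100A3, S100A4, S100A6, S100A13 and S100A16.

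S100P, which binds ezrin and RAGE, fell most. Its estimated counts were 103, 93 and 136 in TTC3 shRNA libraries and 627, 676 and 571 in control shRNA libraries. These correspond to 0.683, 0.679 and 0.947 CPM in TTC3 shRNA cells, against 3.91, 4.19 and 3.82 CPM in control shRNA cells. The groups were far apart, with the highest TTC3 shRNA library still well under the lowest control shRNA library. S100P was 5.16-fold lower in TTC3 shRNA cells (log2 fold change -2.37 ± 0.17, SE, adjusted p = 0.000153), and it was lower in 3 of 3 libraries. The adjusted p stayed at most 0.00185 in every alternative analysis, with a log2 fold change of -2.64 to -2.27.

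S100A10, also called p11, forms a tetramer with annexin A2 that binds plasminogen and carries channels to the cell surface. It was at 104.7, 97.2 and 97.2 CPM in TTC3 shRNA libraries and 129.7, 130.2 and 130.8 CPM in control shRNA libraries. Every TTC3 shRNA library was below the controls, with replicate 1 apart from replicates 2 and 3. The SD was 4.32 CPM in TTC3 shRNA libraries and 0.568 CPM in control shRNA libraries. S100A10 fell by 0.39 ± 0.06 on the log2 scale (SE, adjusted p = 0.00323), a 1.31-fold difference, and passed in every alternative analysis (adjusted p at most 0.0272).

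S100A11, which pairs with annexin A1, also had all TTC3 shRNA libraries below all controls, with a smaller gap. It was at 93.1, 96.5 and 92.6 CPM in TTC3 shRNA libraries and 99.2, 101.2 and 102.7 CPM in control shRNA libraries. Although the groups did not overlap, the test was not passed (log2 fold change -0.10 ± 0.05, adjusted p = 0.187).

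S100A16, a broadly expressed member, was the only one that passed as higher. It was at 431.8, 488.3 and 475.6 CPM in TTC3 shRNA libraries and 336.6, 343.3 and 340.4 CPM in control shRNA libraries. All 3 TTC3 shRNA libraries lay above all controls. S100A16 was 1.37-fold higher (log2 fold change 0.45 ± 0.07, SE, adjusted p = 0.00312). With the trend of each library with transcript length removed, described below, it was at 0.15 and did not pass (adjusted p = 0.103), and on the per-length scale its groups overlapped.

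S100A6, or calcyclin, which binds CACYBP and several annexins, was at 176.2, 247.5 and 250.5 CPM in TTC3 shRNA libraries and 258.1, 263.0 and 246.6 CPM in control shRNA libraries. The groups overlapped, and replicate 1 alone was clearly low (log2 fold change -0.19 ± 0.14, adjusted p = 0.326). S100A2 was at 14.2, 20.4 and 21.6 CPM in TTC3 shRNA libraries and 21.8, 23.7 and 23.3 CPM in control shRNA libraries (log2 fold change -0.29 ± 0.15, adjusted p = 0.182). Its groups did not overlap, but replicates 2 and 3 were close to the controls.

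S100A4, which binds non-muscle myosin, was at 5.39, 7.65 and 8.38 CPM in TTC3 shRNA libraries and 7.93, 7.71 and 7.23 CPM in control shRNA libraries. The difference of -0.09 ± 0.17 on the log2 scale was not past the test (adjusted p = 0.699), and without TTC3 shRNA replicate 1 its log2 fold change was 0.09. Thus S100A2, S100A4 and S100A6 shared a pattern, a low value in TTC3 shRNA replicate 1 and values nearer the controls in replicates 2 and 3. Being lowest in replicate 1 was not particular to them. Among the TTC3 shRNA libraries S100A3, S100A13 and S100A16 were also lowest there, but with replicates 2 and 3 above all controls. In log2 terms against the control mean, S100A2 was at -0.69, -0.17 and -0.09, S100A4 at -0.497, 0.006 and 0.14, and S100A6 at -0.54, -0.048 and -0.03 in replicates 1, 2 and 3.

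S100A13, which takes part in the release of FGF1 and IL1A from cells, had a wider range over the TTC3 shRNA replicates on the log2 scale than any other member except S100A14. It was at 29.9, 49.1 and 58.7 CPM in TTC3 shRNA libraries and 29.1, 30.9 and 30.2 CPM in control shRNA libraries. Replicate 1 sat within the control range, and replicates 2 and 3 were above it. The difference over all libraries missed the threshold (log2 fold change 0.61 ± 0.22, adjusted p = 0.0712), but passed when TTC3 shRNA replicate 1 was left out (0.86, adjusted p = 3.97e-05) or DESeq2 was used (0.62, adjusted p = 0.0156).

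S100A3 and S100A14 had few counts. S100A3, best known from hair cuticle, was at 3.32, 4.13 and 4.83 CPM in TTC3 shRNA libraries and 3.51, 3.50 and 3.58 CPM in control shRNA libraries (log2 fold change 0.21 ± 0.15, adjusted p = 0.326). It passed without TTC3 shRNA replicate 1 (0.36, adjusted p = 0.0308). S100A14, an epithelial member, had 10, 9 and 34 counts in TTC3 shRNA libraries and 21, 24 and 24 counts in control shRNA libraries. At that depth its groups overlapped and no difference was detectable (adjusted p = 0.760).

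The members have short transcripts, with count-weighted lengths of 580 bases (S100A4) to 1279 bases (S100P), against a median of 3174 bases for the 10750 protein-coding genes used to describe length. In those genes, the slope of the log2 difference from the control mean, for each doubling of length, was -0.028, -0.17 and -0.21 in TTC3 shRNA replicates 1, 2 and 3. At the length of S100A6 (665 bases) the trend stood at 0.15, 0.52 and 0.62 in replicates 1, 2 and 3, and at the length of S100P at 0.096, 0.33 and 0.38. S100A6 itself differed from that trend by -0.68, -0.57 and -0.65 in the 3 replicates, so its replicates lay closer together once the trend was taken off. The same held for S100A2 (-0.82, -0.61 and -0.62) and S100A4 (-0.65, -0.55 and -0.53). It did not hold for S100A10, whose replicates lay farther apart with the trend off (-0.42, -0.77 and -0.83) than with it (-0.32, -0.42 and -0.42). S100A11 likewise stood at -0.27, -0.62 and -0.79 with the trend off and at -0.12, -0.07 and -0.13 with it. S100A13 stood at -0.15, 0.19 and 0.34 from the trend.

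**Figure D2:**
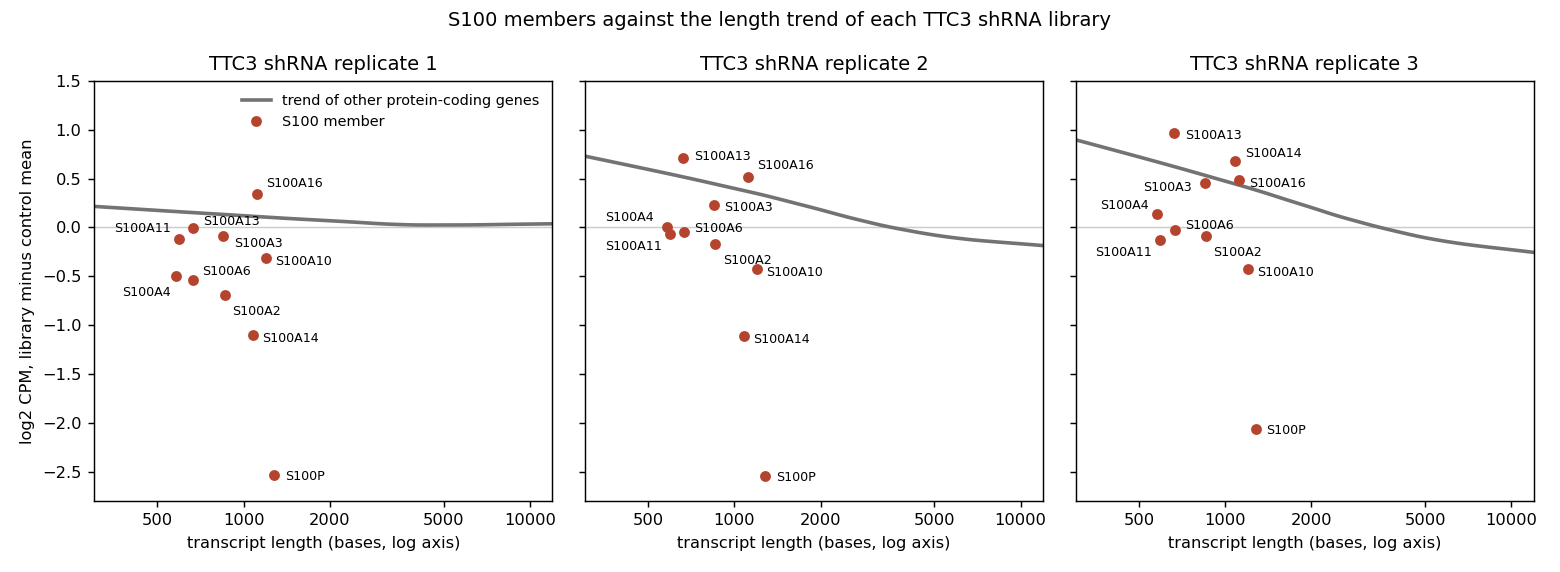
Log2 CPM of each S100 member in TTC3 shRNA replicates 1, 2 and 3 minus the control mean, against transcript length (log axis), with the trend of other protein-coding genes in grey. The trend is nearly flat in replicate 1 and reaches 0.52 and 0.62 at the length of S100A6 in replicates 2 and 3, and 7 members lie below it in all 3 panels. The share of all genes that lie below it in all 3 was not counted, so the 7 are not a trait of the family.

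With each library's length trend removed, 6 of the 10 members passed as lower and none as higher. Of all 24325 tested genes, 5300 passed as lower and 3049 as higher in the same fit. They were S100A2 (log2 fold change -0.68, adjusted p = 0.000988), S100A4 (-0.58, adjusted p = 0.00381), S100A6 (-0.63, adjusted p = 0.000354), S100A10 (-0.66, adjusted p = 0.00409), S100A11 (-0.54, adjusted p = 0.0145) and S100P (-2.64, adjusted p = 4.97e-05). The members' median was -0.59, while that of all tested genes was -0.15 in the same fit. S100A3 was at -0.17 with this step and at 0.21 without it, and neither value passed. Of the 3 calls made without this step, S100A10 and S100P were made with it too and S100A16 was not.

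Levels were compared between members per transcript length (TPM), as each member's share of the sum over the 10 within a library. S100A16 took 39.8%, 37.3% and 36.3% in TTC3 shRNA libraries and 28.57%, 28.55% and 28.996% in control shRNA libraries. Its level was 635, 553 and 481 TPM in TTC3 shRNA libraries and 509, 498 and 495 TPM in control shRNA libraries, so the groups overlapped on this scale. The 10 members summed to 1595, 1481 and 1324 TPM in TTC3 shRNA libraries and 1782, 1743 and 1708 TPM in control shRNA libraries, lower in all 3. In CPM the sums were 859, 1012 and 1011 in TTC3 shRNA libraries and 890, 908 and 889 in control shRNA libraries. On that scale TTC3 shRNA replicates 2 and 3 were above all controls, so the direction of the sum depended on the scale. S100A6 took 27.2%, 31.6% and 32.0% in TTC3 shRNA libraries and 36.7%, 36.6% and 35.2% in control shRNA libraries. The order of these most abundant members differed between the groups, with S100A16 ahead in each TTC3 shRNA library and S100A6 ahead in each control shRNA library. The ratio of S100A16 to S100A6 was 1.46, 1.18 and 1.13 in TTC3 shRNA libraries, against 0.779, 0.779 and 0.824 in control shRNA libraries. This ratio was chosen after its values were seen and was not tested.

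Next in order were S100A11 (14.4% ± 1.505 in TTC3 shRNA cells and 16.005% ± 0.357 in control shRNA cells, SD, n = 3 each) and S100A10 (7.58% ± 1.20 in TTC3 shRNA cells and 10.2% ± 0.149 in control shRNA cells). S100A13 took 6.16% ± 1.42 in TTC3 shRNA cells and 4.35% ± 0.141 in control shRNA cells. In TTC3 shRNA replicates 1, 2 and 3, S100A10 took 8.97%, 6.88% and 6.89% and S100A13 took 4.63%, 6.45% and 7.42%. S100A10 was thus ahead in replicates 1 and 2 and S100A13 in replicate 3, while S100A10 was ahead in every control shRNA library. S100A2 took 2.17% ± 0.242 in TTC3 shRNA cells and 2.63% ± 0.0966 in control shRNA cells. S100A4 came next in both groups, then S100A3 and S100P, with S100A14 last at 0.00994% in TTC3 shRNA cells and 0.0130% in control shRNA cells.

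**Figure D3:**
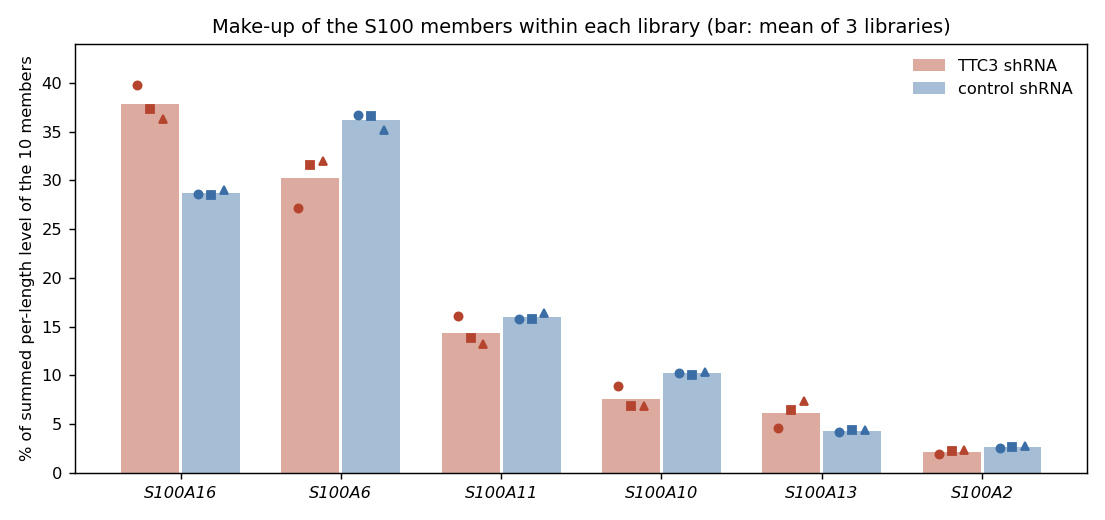
Share (%) of the summed per-length level of the 10 S100 members taken by the 6 most abundant ones, as the mean of 3 libraries (bars from 0, TTC3 shRNA in red left of control shRNA in blue) with each library as a point (circle, square and triangle for replicates 1, 2 and 3). S100A16 is at 36.3% to 39.8% in TTC3 shRNA libraries and 28.55% to 28.996% in control shRNA libraries, and S100A6 at 27.2% to 32.0% in TTC3 shRNA libraries and 35.2% to 36.7% in control shRNA libraries.

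The members were listed with 32 transcripts, of which 27 were tested. The test was passed by 4, against 3.99% of all 53805 transcripts tested. The count was 0 without any of the 3 control shRNA replicates, 7 without TTC3 shRNA replicate 1, 1 without replicate 2 and 2 without replicate 3, so single libraries changed this count. The only transcripts of S100P and S100A11 carried the whole gene count, and S100A10-202 and S100A16-204 carried at least 95% of theirs in each library. S100P-201 (log2 fold change -2.39 ± 0.24, adjusted p = 0.0119) and S100A10-202 (-0.41 ± 0.07, adjusted p = 0.0405) passed as lower and S100A16-204 (0.42 ± 0.05, adjusted p = 0.0238) as higher. The fourth, S100A13-201, was chosen after its values were seen. It had 79, 66 and 63 counts in TTC3 shRNA libraries and 4 counts in each control shRNA library (log2 fold change 4.17 ± 0.31, adjusted p = 0.00573), but made up only 0.748% to 1.75% of the S100A13 count in TTC3 shRNA libraries. S100A13-201 entered the test only through the TTC3 shRNA libraries, where it was high, so its place among the 4 is no support for a rise.

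Among other S100A13 transcripts, the noncoding S100A13-205 held 46.3%, 40.3% and 66.5% of the gene count in TTC3 shRNA libraries and 53.2%, 45.6% and 38.3% in control shRNA libraries. The high S100A13 value of replicate 3 thus came with 5603 counts on a transcript that is not annotated as coding. For S100A2, the 998-base S100A2-202 held 58.0%, 57.4% and 62.7% of the gene count in TTC3 shRNA libraries and 68.2%, 74.5% and 68.3% in control shRNA libraries. The 556-base S100A2-201 held 28.2% ± 1.603 in TTC3 shRNA cells and 18.2% ± 4.38 in control shRNA cells (SD, n = 3 each). The S100A2 shares did not overlap between groups for either transcript and were not tested. How many of all transcripts have shares that do not overlap was not counted, so this is not a trait of S100A2. On their own counts neither transcript passed the test. S100A2-202 was at a log2 fold change of -0.56 ± 0.21 (adjusted p = 0.217) and S100A2-201 at 0.32 ± 0.26 (adjusted p = 0.546). Since isoforms of a gene overlap in sequence, the split between them is uncertain.

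The other 11 S100 genes were nearly silent. Of these, 5 passed the filter and 2 passed the test, both lower in TTC3 shRNA cells, a share of 40% against 33.6% of all tested genes. S100A7 and S100Z passed the filter only through the control shRNA libraries, where their counts were higher, so these numbers support no direction. S100A9, a subunit of the inflammatory heterodimer calprotectin, had 21, 18 and 14 counts in TTC3 shRNA libraries and 84, 88 and 104 counts in control shRNA libraries. It was 4.77-fold lower (log2 fold change -2.25 ± 0.26, adjusted p = 0.00101), and its partner S100A8 had 0 counts in all 6 libraries. S100A7, or psoriasin, had 0 counts in all TTC3 shRNA libraries and 18, 40 and 36 counts in control shRNA libraries. Set against a floor of 3 counts over the group, it was at least 28.7-fold lower. S100A5 had 13, 56 and 12 counts in TTC3 shRNA libraries and 79, 90 and 99 counts in control shRNA libraries, and S100Z had 0, 0 and 9 counts in TTC3 shRNA libraries and 14, 18 and 25 counts in control shRNA libraries. Neither passed (adjusted p = 0.0834 and 0.124), nor did S100A1 (adjusted p = 0.471).

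S100A9 is abundant in myeloid cells, so leukocyte markers are given beside it. The 4 markers summed to 16.3 to 38.4 CPM in TTC3 shRNA libraries and 13.4 to 18.0 CPM in control shRNA libraries, nearly all of it CD68, but the other 3 markers were lower in every TTC3 shRNA library. CD68 was at 32.0, 37.99 and 15.9 CPM in TTC3 shRNA libraries and 11.8, 14.1 and 16.5 CPM in control shRNA libraries. The monocyte gene CD14 had 46, 54 and 51 counts in TTC3 shRNA libraries and 138, 158 and 124 counts in control shRNA libraries, 2.53-fold lower (adjusted p = 0.00224). LYZ, the lysozyme gene, had 4, 0 and 10 counts in TTC3 shRNA libraries and 86, 109 and 76 counts in control shRNA libraries. The pan-leukocyte gene PTPRC was at most 0.0199 CPM in TTC3 shRNA libraries and 0.0619 to 0.212 CPM in control shRNA libraries. The part of such markers in the S100A9 value was not tested.

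Between the outermost S100 genes of chromosome 1, a span of 1649 kb with 90 table genes, 73 were not S100 genes and 8 of those were tested. The test was passed by 1 of the 8 (12.5%, against 33.6% of all tested genes). FLG-AS1, an antisense transcript of the filaggrin region, passed as higher (9.40 ± 0.402 CPM in TTC3 shRNA cells and 7.43 ± 0.555 CPM in control shRNA cells, log2 fold change 0.34 ± 0.10, adjusted p = 0.0340). The other 7 did not pass, among them RPTN of the fused-type S100 genes (adjusted p = 0.0614) and the antisense genes over S100A11 (ENSG00000229021, adjusted p = 0.217) and S100A6 (ENSG00000238279, adjusted p = 0.242). Of 7 fused-type genes 3 were tested, and none passed. The count of 1 was 0 without TTC3 shRNA replicate 2 or without any control shRNA replicate, and 4 without TTC3 shRNA replicate 1. S100A16 passed as higher, while S100A2 and S100A14, the members on either side of it, did not pass. Whether neighbours differ from each other was not tested.

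Annexins, the calcium-dependent membrane-binding proteins to which several S100 dimers attach, changed in both directions. Of 13 annexin genes 10 were tested, 3 rose and 3 fell, a share of 60% against 33.6% of all tested genes, with a median log2 fold change of 0.10. All 6 were among the 9 annexins with a mean of at least 5 CPM, a level at which 43.4% of all tested genes passed. The count of 6 was 3 without any of the control shRNA replicates. ANXA2, the partner of S100A10, was at 1260 ± 46.1 CPM in TTC3 shRNA cells and 1346 ± 22.5 CPM in control shRNA cells and was not past the test (log2 fold change -0.095 ± 0.06, adjusted p = 0.269). ANXA1, the partner of S100A11, fell by 0.29 ± 0.09 on the log2 scale (adjusted p = 0.0453). ANXA6, which binds membranes through a doubled annexin core, rose by 0.70 ± 0.07, to 148.9 ± 9.60 CPM in TTC3 shRNA cells against 91.6 ± 1.74 CPM in control shRNA cells (adjusted p = 0.000488). ANXA10 fell by 1.70 ± 0.17 (adjusted p = 0.000615) and ANXA3 by 0.56 ± 0.09 (adjusted p = 0.00509), while ANXA5, which binds phosphatidylserine, rose by 0.31 ± 0.07 (adjusted p = 0.0169). For ANXA10 all 3 TTC3 shRNA libraries (3.94 to 6.13 CPM) lay below all controls (14.99 to 16.43 CPM).

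All 20 reported S100 partners and receptors were tested, and 5 rose and 5 fell, a share of 50% against 33.6% of all tested genes, with a median log2 fold change of 0.12. Of the 17 with a mean of at least 5 CPM, 8 passed, against 43.4% of all tested genes at that level. The count of 10 among the 20 was 18 without TTC3 shRNA replicate 1. MCAM, an adhesion receptor bound by S100A8 and S100A9, rose most, to 91.1, 117.0 and 120.0 CPM in TTC3 shRNA libraries against 44.4, 45.2 and 42.7 CPM in control shRNA libraries (log2 fold change 1.31 ± 0.11, adjusted p = 0.000279). FGF1, which is released in a complex with S100A13, rose by 0.97 ± 0.11 (adjusted p = 0.000828). IL1A and SYT1, named after their values were seen because S100A13 is also linked to their products, were both lower. IL1A had 24, 6 and 17 counts in TTC3 shRNA libraries and 81, 108 and 66 counts in control shRNA libraries, and SYT1 fell by 0.79 ± 0.11 (adjusted p = 0.00252). NPTN, neuroplastin, fell by 0.84 ± 0.06 (adjusted p = 0.000184). TLR4, a receptor for calprotectin, had 0 counts over the TTC3 shRNA libraries and 167 over the control shRNA libraries, at least 51.0-fold lower against a floor of 3 counts over the group. It entered the test only through the control shRNA libraries. IL1A also needed control shRNA libraries to enter, because its 6 counts in TTC3 shRNA replicate 2, though not those of replicates 1 and 3, fell short of the filter. The places of TLR4 and IL1A among the 5 that fell are thus no support for a fall. AHNAK, the giant scaffold that binds the S100A10 and annexin A2 complex, was at 3454 ± 529 CPM in TTC3 shRNA cells and 2733 ± 31.2 CPM in control shRNA cells and did not pass (adjusted p = 0.0575). AGER, the RAGE gene, was below 1.1 CPM in all libraries and did not pass (adjusted p = 0.387).

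**Figure D4:**
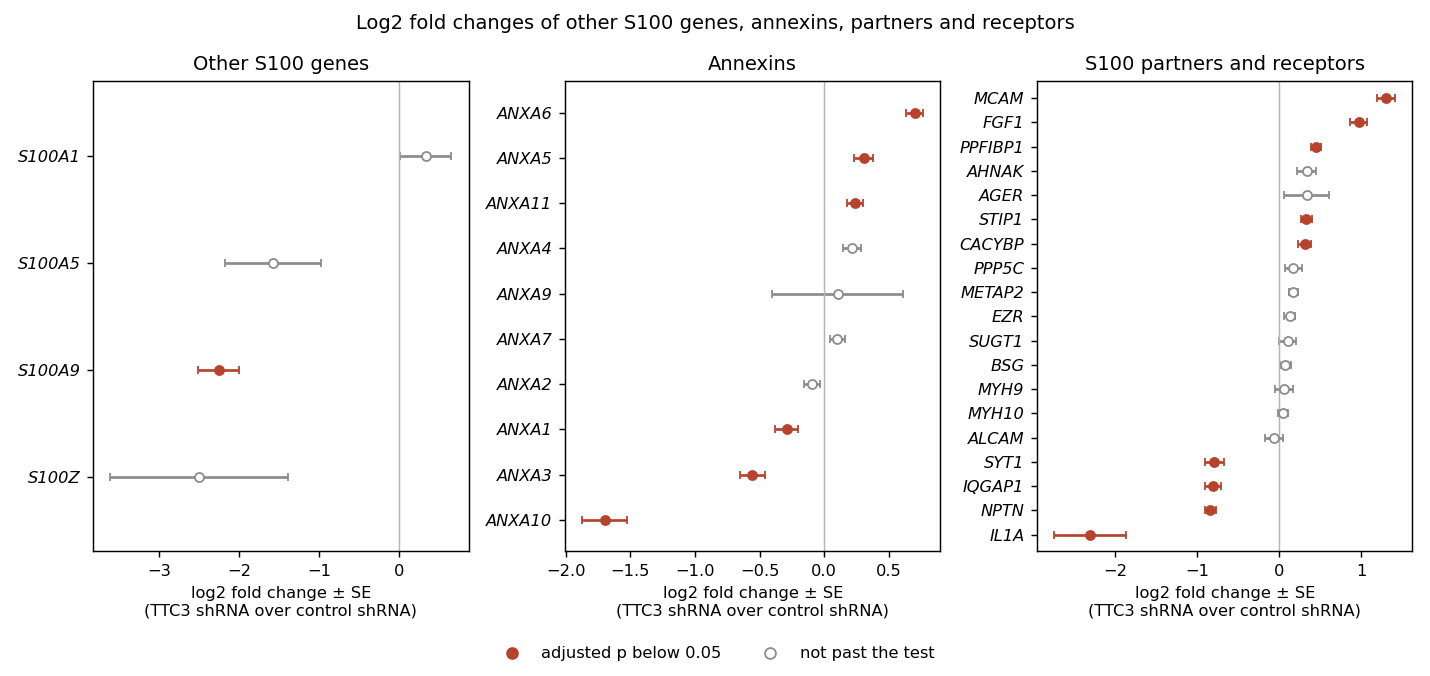
Log2 fold change ± SE (TTC3 shRNA over control shRNA, 3 libraries each) of the tested other S100 genes, annexins, and S100 partners and receptors, filled red where the adjusted p was below 0.05. S100A7 and TLR4, with 0 counts in TTC3 shRNA cells, are left out. ANXA6 (0.70) and MCAM (1.31) lie farthest to the right in their panels, and ANXA10 (-1.70) lies farthest to the left among annexins.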

How the data were processed

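The authors deposited estimated counts per gene and per transcript for each library in whole numbers and without scaling to depth. Trim Galore, STAR, StringTie and hg38 were used per the submitters' processing notes, and a strand-specific kit per the labels' protocols. Tool versions and settings, the annotation release and any use of strand in counting were not given in the labels. Columns were matched to samples by library name. The members and gene lists were chosen with earlier results of these data known.

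The counts needed no rounding. Libraries were scaled by TMM factors (0.924 to 1.05) and fitted with edgeR 4.0.16 in R 4.3.3 (filterByExpr, glmQLFit, glmQLFTest) over all 6 libraries without a block, with Benjamini-Hochberg adjustment over all 24325 tested genes or 53805 transcripts and a threshold of 0.05. SE was obtained as |log2 fold change| over the root of the F statistic. Floors cover counting error only. Counts of abundant members are large enough that the spread between libraries limits precision, while S100A14 and the other S100 genes are also limited by counting error. TPM was computed from transcript counts and GENCODE 29 lengths, found for 98286 of 117688 transcripts by identifier without version. Positions are GENCODE 29, held by 58207 genes.

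The length trend was a lowess curve (span 0.5) of each library's log2 CPM (0.5 counts added) against count-weighted transcript length, over tested protein-coding genes averaging 5 CPM or more and on no list, entered as an offset. Other alternatives were DESeq2 size factors, library totals, DESeq2 1.42.0, limma-voom (limma 3.58.1), TMM leaving out mitochondrial genes and the 20 highest genes, no filter, at least 50 counts in 3 libraries, an adjusted p of 0.01, a replicate block and each library left out. All members, the tested other S100 genes, and by a fixed rule the best known partners and up to 4 further genes per list by adjusted p were named, with fewer transcripts than the rule gives. A marker gene and the summed level of its list are not reported here.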

Additional observations from a re-analysis of the deposited data

How the results depend on the processing

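S100A10 and S100P passed as lower in all alternatives, and S100A16 as higher in all but the removal of the length trend. Of 159 alternative member fold changes, 145 kept direction and side of the threshold, 9 newly passed, 1 no longer passed and 4 changed sign. The sign changes were S100A3 with the length trend removed (-0.17), S100A4 (0.090) and S100A14 (0.065) without TTC3 shRNA replicate 1, and S100A14 without TTC3 shRNA replicate 2 (0.046). With a library left out, S100A4 ranged between -0.21 and 0.090 and S100A14 between -1.13 and 0.065. The cause of these changes was not tested.

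Members passing as higher numbered 2 with DESeq2, 0 with the length trend removed and 1 to 3 with a library left out. Those lower numbered 4 with library totals alone and 6 with the length trend removed, where 5300 of 24325 tested genes were lower. Library totals alone shifted the median of all genes to -0.15 and gave 2519 genes higher and 5354 lower, against 3827 and 4338. An adjusted p of 0.01 left 4082 genes, 3 annexins, 1 member transcript and 0 genes within the chromosome 1 cluster. The cluster count was also 0 with library totals and 2 with DESeq2 or limma-voom, and the count of other S100 genes was 4 with limma-voom and 1 with at least 50 counts in 3 libraries.

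With a library left out, the ranges were 4546 to 13739 genes, 3 to 8 annexins, 8 to 18 partners and receptors, 0 to 4 cluster genes and 0 to 7 member transcripts. Same-numbered libraries did not deviate together (correlations of 0.0305, 0.0307 and -0.00537), so no pairing by number was seen. With 3 libraries per group, this cannot exclude that same-numbered libraries were prepared together. With the replicate block, 0 member transcripts and 0 cluster genes passed, S100A16 was at 0.45, S100A10 at -0.39 and S100P at -2.38, and the members' calls were the same. Counting error limits S100A14, S100A5, S100A7, S100A9 and S100Z.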
